A study of Mus musculus with 24 samples.

Results

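miR-221 and miR-222 are a pair of microRNAs (miRNAs) made from neighbouring hairpins on the mouse X chromosome, and they were followed here across the lungs of wild type and c-Raf transgenic mice. They were chosen by name, as the rows of the arrays that carry mmu-miR-221 or mmu-miR-222 without the star forms, and are 2 of the 611 mouse miRNAs on the array. Cy3-labelled total RNA of 24 lungs was put on mouse miRNA arrays of 1 colour, 1 array per sample, in 4 groups of 6: wild type males (M WT), wild type females (F WT), SP-C/c-Raf males (M c-Raf) and SP-C/c-Raf females (F c-Raf). In the transgenic line the surfactant protein C promoter drives an oncogenically activated deletion mutant of c-Raf in the alveolar epithelium. The mice of all groups were 4 to 6 months old, and no further treatment was named for any group. The methods describe laser microdissection of cells from frozen sections, while the paper also speaks of lung RNA extracts put on the arrays. It is therefore unclear whether the RNA came from dissected cells or from whole lung tissue. The tissue label of all 24 samples reads lung adenocarcinoma, although the protocol describes the wild type lungs as normal. Which cells were cut out, if any, is not said. In such bulk RNA, fewer cells of a type and less RNA per cell cannot be told apart.

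A miRNA is a short RNA that pairs, mainly through its seed near the 5′ end, with sites in messenger RNAs and lowers their output. miR-221 and miR-222 are processed from one primary transcript whose promoter responds to ERK and AP-1 signalling, the pathway that RAF kinases switch on through MEK. They are known to repress the cell cycle inhibitor p27 (Cdkn1b) and the receptor KIT, and they are abundant in endothelial and smooth muscle cells. Raised levels have been described in several carcinomas, lung included, so a c-Raf-driven lung is a setting in which the question of their level arises. The arrays measured mature miRNAs only, and neither the transgene nor any target was measured.

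The mature sequences are shown because both members share one seed, so that they address the same class of sites. They are the RefSeq entries miR-221-3p and miR-222-3p, 5′ to 3′, with bases 2 to 8, the seed, in capitals.
miR-221: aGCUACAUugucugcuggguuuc
miR-222: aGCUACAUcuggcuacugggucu
The first 8 bases are the same in both, and 11 of the 23 positions match when the strands are laid side by side without gaps. Beyond the seed the sequences therefore part, and each miRNA has probes of its own on the array, 2 per miRNA in 20 spots. Of 1679 mature mouse miRNAs in the RefSeq table, 3 carry this seed, and the other one, miR-1928, is not on the array. In build GRCm38.p6 the miR-221 hairpin lies at chrX:19146294-19146388 and the miR-222 hairpin at chrX:19146893-19146971, both on the minus strand with 504 bases between them.

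The 24 arrays differed in brightness from 34.9 to 1212 intensity units, where brightness is the 75th percentile of spot intensities, taken over the 27 mouse miRNAs that every array detected. Its median was 176 in wild type males, 433 in c-Raf males, 265 in wild type females and 193 in c-Raf females. Each replicate number was 1 slide that held 1 array of every group, and the slides fell into 4 scans. Each group always sat at the same position on the slide, so position and group cannot be told apart. F WT replicate 5 stood apart from its group. Its miR-127 was at -3.15 and its miR-146b at -5.12 on the log2 scale, while both were at the floor of the scale on the other 5 F WT arrays. Its miR-221, at -5.54, lay within the range of the other F WT arrays. All results include this array, and values without it are given only where stated. As a check of the tissue, the epithelial markers miR-200b and miR-200c were detected on all 24 arrays and the endothelial marker miR-126-3p on 23. Of the other listed epithelial markers, miR-375 was detected on 16 arrays, miR-429 on 13, miR-200a on 11 and miR-141 on 1. The other listed endothelial marker, miR-126-5p, was detected on none.

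How much signal the pair gave was asked first. miR-221 was faint but mostly above background, and miR-222 was at background on most arrays. In background-subtracted intensity units, the lowest, median and highest miR-221 values were 0.353, 3.15 and 7.12 in M WT and 1.38, 6.29 and 11.9 in F WT. For M c-Raf arrays they were 1.49, 9.95 and 25.6, and for F c-Raf arrays 2.37, 5.13 and 9.72. The 3 highest values all came from M c-Raf (replicates 4, 5 and 3), but the lower values of M c-Raf lay among those of the other groups, and all 4 groups overlapped. As a share of each array's brightness, the median of miR-221 was 1.93% for wild type and 2.78% for c-Raf males, and 2.29% for wild type and 2.48% for c-Raf females. The 407 mouse miRNAs that were detected on no array give a measure of background. miR-221 was above the 95th percentile of these 407 on 22 of 24 arrays and above every one of them on 15. The exceptions to the first count were M WT replicate 4, at 0.603 units, and M WT replicate 5, at 0.353 units. M WT replicate 5 was also the noisiest array, with a 95th percentile of 7.09 units for the never detected miRNAs, against at most 4.19 on the other arrays.

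miR-222 gave a negative intensity on 12 of the 24 arrays and was above the 95th percentile of the never detected miRNAs on 7. Its highest value, 13.6 units, was measured on M c-Raf replicate 4, the brightest array, followed by 7.28 on M c-Raf replicate 5 and 5.14 on F WT replicate 4. The remaining 21 arrays were at 4.90 units or less. No M WT array had miR-222 above the 95th percentile of the never detected miRNAs, compared with 2 F WT arrays and with 2 male and 3 female c-Raf arrays.

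**Figure D1:**
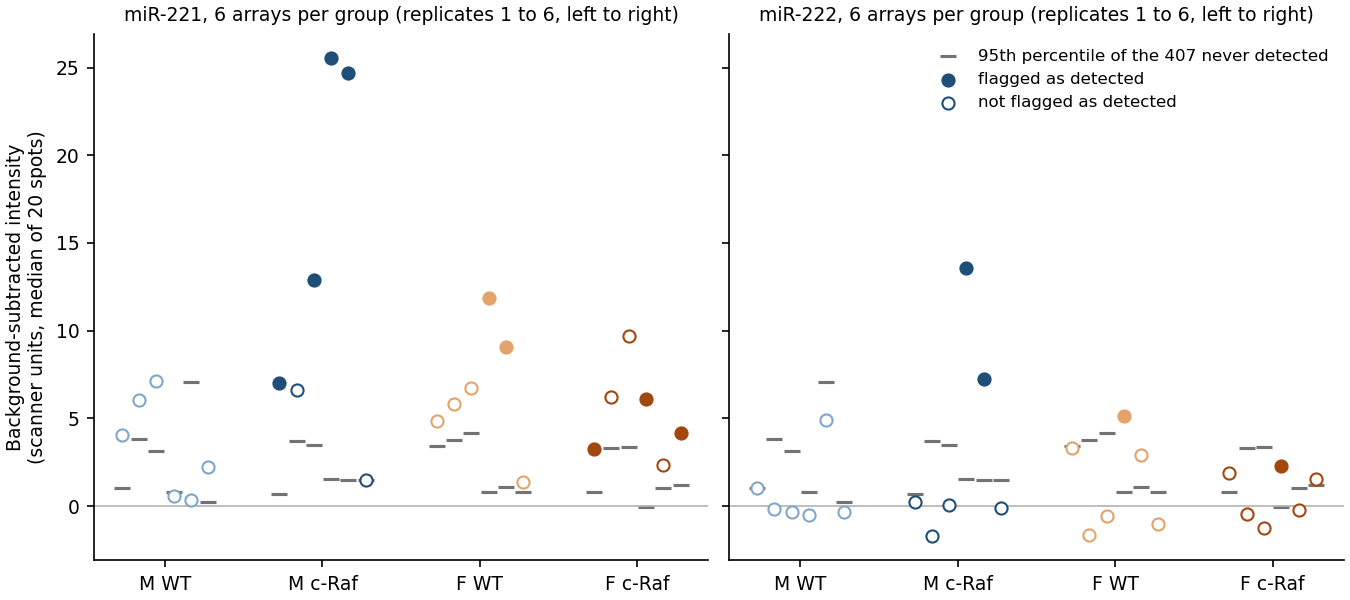
Background-subtracted intensity (scanner units, median of 20 spots) of miR-221 (left) and miR-222 (right) on each of the 6 arrays per group. Filled points were flagged as detected, open points were not, and grey dashes mark the 95th percentile of the 407 never detected miRNAs on the same array; miR-221 lies above its dash on 22 of 24 arrays and miR-222 on 7.

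The extraction software flags a miRNA as detected by its own rule on signal and error. miR-221 was detected on 9 of the 24 arrays: on 4 M c-Raf arrays (replicates 1, 3, 4 and 5), 3 F c-Raf arrays (replicates 1, 4 and 6), 2 F WT arrays (replicates 4 and 5) and no M WT array. miR-222 was detected on 4 arrays, which were M c-Raf replicates 4 and 5, F c-Raf replicate 4 and F WT replicate 4. By genotype, miR-221 was detected on 7 of 12 c-Raf arrays and 2 of 12 WT arrays, and miR-222 on 3 and 1. More detections on c-Raf than on WT arrays were common, while a gap of at least 5 arrays was less so. Of the 177 miRNAs detected on some but not all arrays, 116 (65.5%) were detected on more c-Raf than WT arrays, and 16 (9.04%), miR-221 among them, on at least 5 more. All 7 miRNAs that were detected on exactly 9 arrays, miR-221 included, had more c-Raf than WT detections, and 4 of the 7 had at least 5 more. Without F WT replicate 5, 1 of 11 WT arrays detected miR-221.

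The flags also moved with brightness and with the scan. On the 12 dimmest arrays, of 34.9 to 204 units, miR-221 was detected on 2 and miR-222 on none. On the 12 brightest, of 227 to 1212 units, they were detected on 7 and 4. Scan 1 gave 3 miR-221 detections on 4 arrays, scan 2 gave 3 on 8, scan 3 gave 2 on 4 and scan 4 gave 1 on 8. The lowest signal that counted as well above background was 19.0 to 23.2 units on the arrays of scan 4, compared with 6.77 to 8.98 units in scan 1. The part of brightness and scan in the difference of detections between the genotypes was not tested.

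**Figure D2:**
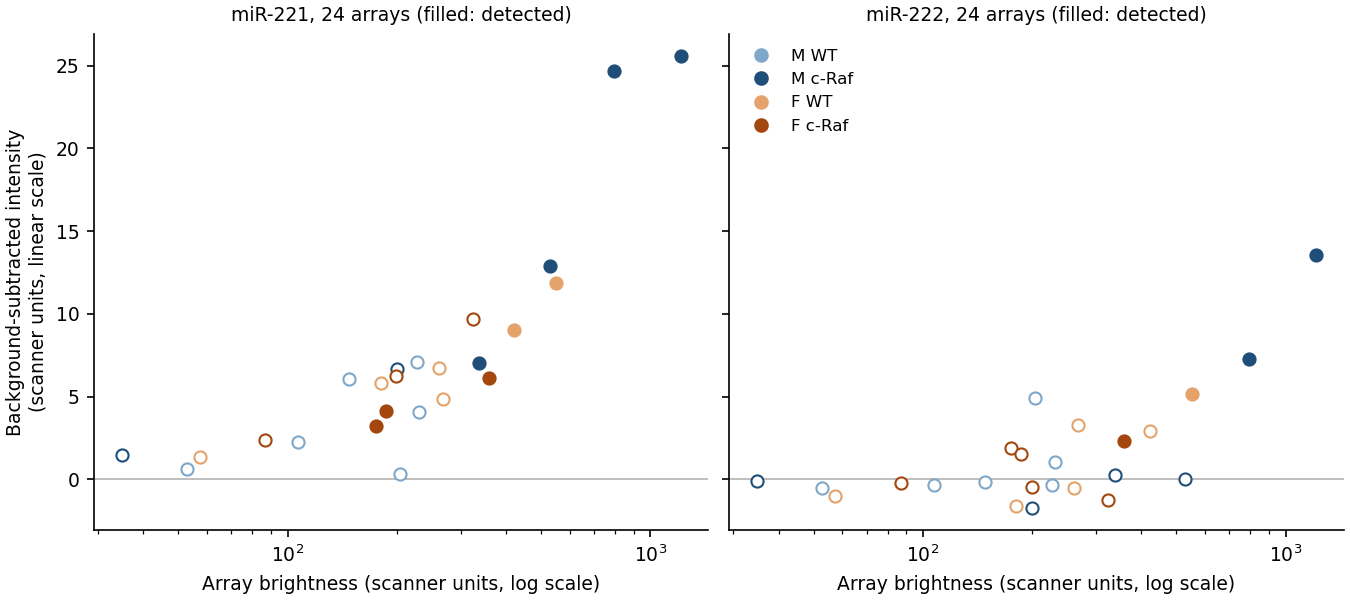
Background-subtracted intensity (scanner units) of miR-221 and miR-222 against the brightness of the array (scanner units, log scale) for the 24 arrays, coloured by group, with filled points where the miRNA was detected. The miR-221 signal climbs with brightness from 1.49 units on the dimmest array to 25.6 on the brightest. The highest miR-222 values, 13.6 and 7.28 units, are on M c-Raf replicates 4 and 5, the brightest arrays. All others are at 5.14 units or less, with 4.90 on M WT replicate 5, of brightness 204.

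The unscaled signal of the pair followed the overall brightness of the array. Over the 24 arrays, Pearson's r between miR-221 intensity and brightness was 0.945 (permutation p = 1e-05, adjusted p = 6e-05; the first is the lowest value these resamples allow) and Spearman's rho was 0.844. With the 2 brightest arrays, which lay farthest from the median, left out, r was 0.882, and within scans 2 and 4, with 8 arrays each, it was 0.961 and 0.975. For miR-222 the same relation gave r = 0.848 and rho = 0.561, and r was 0.463 without those 2 arrays and 0.874 and 0.369 within scans 2 and 4. Groups were compared on values divided by brightness. Over all 24 arrays these scaled log2 values of miR-221 had r = -0.069 with log2 brightness (permutation p = 0.750, adjusted p = 0.765). Within scan 2 this r was -0.280 and within scan 4 it was -0.851, so that among the 8 arrays of scan 4 the dimmer ones had the higher scaled miR-221. Adjusted p values in these relations are over the 6 relations computed.

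Because both miRNAs come from one transcript, their relation over arrays was asked next. On unscaled intensities r between miR-221 and miR-222 was 0.710 (permutation p = 0.00172, adjusted p = 0.00344), but rho was 0.233 (permutation p = 0.274, adjusted p = 0.411). Without M c-Raf replicates 4 and 5, the 2 arrays farthest from the median of miR-221, r was 0.072, so the relation rested on those arrays. On the scaled log2 values r was -0.567 (permutation p = 0.00386, adjusted p = 0.00579) and rho was -0.479 (permutation p = 0.0168, adjusted p = 0.0337). Here miR-222 was at the floor on 20 of the 24 arrays, and r was -0.404 without M WT replicates 5 and 4. Only 4 arrays thus carried a scaled miR-222 value of their own, and the sign of the relation changed with the scaling. Within scan 2 the scaled r was -0.823 and the unscaled r 0.749. Leaving out F WT replicate 5 gave -0.572 and 0.708.

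The comparisons between groups use log2 of the intensity over brightness, with values under 0.01 set to 0.01, a floor of -6.64 on the log2 scale. The mean ± SD of miR-221 was -5.16 ± 0.41 for M c-Raf, then -5.40 ± 0.37 for F c-Raf, -5.41 ± 0.28 for F WT and -5.68 ± 0.80 for M WT (n = 6 each). In this order of levels no neighbours differed beyond their spread, as the tests that follow show. The lowest, median and highest values were -5.59, -5.18 and -4.55 for M c-Raf and -5.88, -5.34 and -5.00 for F c-Raf. They were -5.78, -5.45 and -4.95 in F WT and -6.64, -5.70 and -4.61 in M WT. M WT had the widest range, with replicate 5 at the floor and replicate 2 higher than every array but M c-Raf replicate 6, and all groups overlapped. The highest value, -4.55, came from M c-Raf replicate 6, the dimmest array (brightness 34.9 units). miR-221 was not detected there. Its 1.49 units lay beside a 95th percentile of 1.48 for the never detected miRNAs, 20 of which were above it.

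miR-222 was at the floor on 5 of the 6 arrays of every group. The arrays above it were M WT replicate 5 at -5.38, F WT replicate 1 at -6.35, M c-Raf replicate 4 at -6.48 and F c-Raf replicate 1 at -6.50. On this scale no group can be called high or low in miR-222, since values at the floor have no order. The floor is a share of brightness, so a value at it does not mean that signal was absent. miR-222 was flagged as detected but at the floor on M c-Raf replicate 5 (7.28 units), F WT replicate 4 (5.14) and F c-Raf replicate 4 (2.32). On each of these arrays it was above every never detected miRNA.

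**Figure D3:**
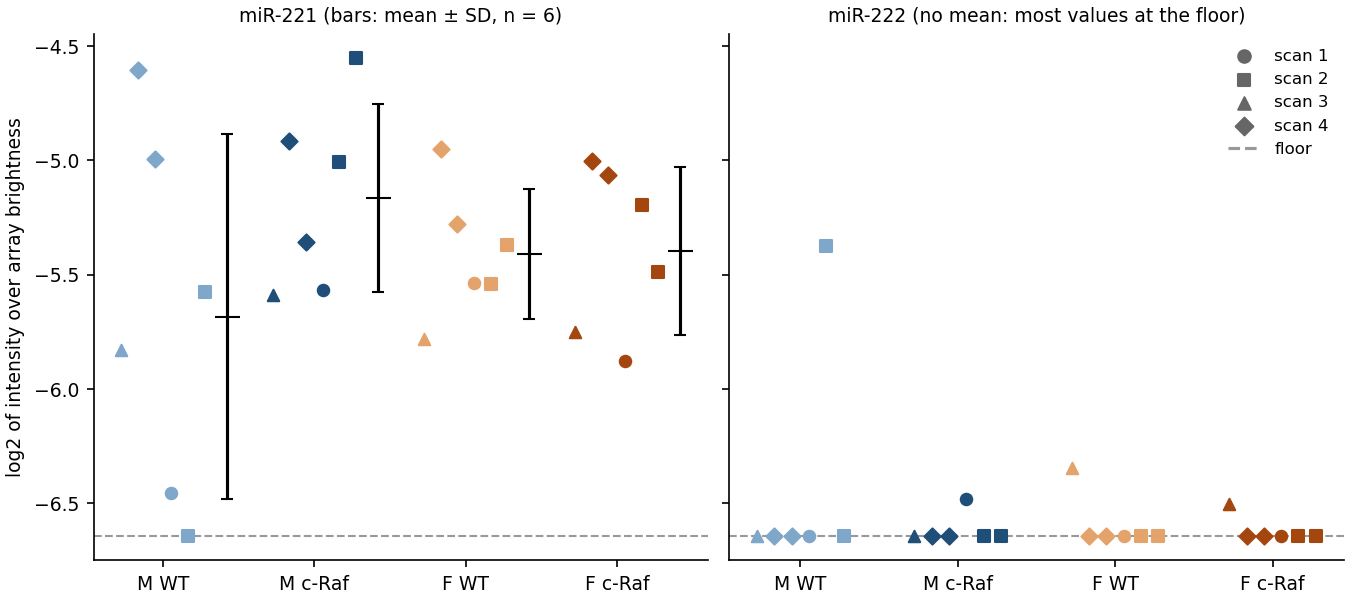
Log2 of intensity over array brightness of miR-221 (left, with mean ± SD, n = 6) and miR-222 (right) on each array by group; the shape of a point gives its scan and the dashed line is the floor of -6.64. The miR-221 values of the 4 groups overlap, and miR-222 sits at the floor on 20 of 24 arrays.

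Whether the transgene changed the pair in males was tested with limma on the 120 mouse miRNAs detected on at least 6 arrays. miR-221 was not called in M c-Raf against M WT, where 3 of the 120 miRNAs (2.50%) were called at an adjusted p under 0.05. The fitted difference was 0.52 ± 0.29 (SE; 95% interval -0.077 to 1.12, limma adjusted p = 0.260), and the M c-Raf array was higher on 4 of 6 slides. Over all 120 miRNAs the median difference was 0.13. Within scans 1, 2, 3 and 4 the difference of means was 0.89, 1.33, 0.24 and -0.33, so it did not keep its sign in scan 4. Scan 1 held replicate 4 and scan 3 replicate 1, so their values set single arrays against each other. Scan 2 held M WT replicate 5, at the floor, and M c-Raf replicate 6, where miR-221 was not detected. With the slide as a block or the scan as a block the difference stayed 0.52 by construction, with limma adjusted p = 0.112 and 0.119. Without M WT replicate 5, the noisy array at the floor, it was 0.33 (limma adjusted p = 0.462). Since miR-221 was detected on no M WT array, that group has only an upper bound, and the bound (-3.32) lay above the M c-Raf mean, so no fold is given.

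The 2 probes of miR-221 were also taken one at a time. The male difference was 0.63 (limma adjusted p = 0.305) with probe A_54_P2640 alone and 0.045 (limma adjusted p = 0.969) with probe A_54_P3830 alone. The size of the difference thus depended on the probe. On M WT replicate 5 probe A_54_P2640 gave -1.56 units and probe A_54_P3830 gave 4.84 units. The direction also changed with the background setting: with normexp background correction, which adds an offset of 50 units, the male difference was -0.85. This offset is larger than the highest miR-221 intensity, 25.6 units, so the normexp value also says little on the direction of miR-221. With the floor raised to each array's weakest signal well above background the male difference was -0.96. There miR-221 lay under the floor on all arrays but M c-Raf replicates 4 and 5 and F WT replicate 4. The scaled value is then set mainly by the floor over the array's brightness, so that setting says little on the direction of miR-221. Under these settings the median of all 120 miRNAs moved too, to -0.79 and -0.65.

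In females no difference of miR-221 between the genotypes was seen beyond the spread. F c-Raf against F WT differed by 0.013 ± 0.29 (SE; 95% interval -0.58 to 0.61, limma adjusted p = 0.998), where 6 of 120 miRNAs (5.00%) were called. As a ratio this is 1.01, with an interval of 0.667 to 1.53. F c-Raf was higher on 3 slides and lower on 3, and the values within scans 1 to 4 were -0.34, 0.11, 0.031 and 0.082. Those of scans 1 and 3 again set single arrays against each other. Without F WT replicate 5 the difference was -0.013 (limma adjusted p = 1.00).

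Over both sexes the c-Raf arrays were 0.27 ± 0.20 (SE; 95% interval -0.16 to 0.69) above the WT arrays in miR-221 (limma adjusted p = 0.395), and -0.53 and -0.084 were obtained with the higher floor and with normexp. Under these 2 settings the medians of all 120 miRNAs over both sexes were -0.44 and -0.080. This comparison had the most calls, 22 of 120 miRNAs (18.3%), and miR-221 was not one of them. Without F WT replicate 5 the value was 0.25 and without M WT replicate 5 it was 0.17. The transgene effect in males minus that in females was 0.51 ± 0.41 (SE; 95% interval -0.34 to 1.35, limma adjusted p = 0.872). No miRNA was called for this difference (0%), with 5 of the 120 at an unadjusted p under 0.05, so the sexes were not shown to differ in the response of miR-221. Without F WT replicate 5 the value of miR-221 was 0.53 (limma adjusted p = 0.880), and 2 other miRNAs were called.

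The pair lies on the X chromosome, so the sexes were compared as well. In c-Raf lungs the male minus female difference of miR-221 was 0.23 ± 0.29 (SE; 95% interval -0.37 to 0.83, limma adjusted p = 0.962), where 3 of 120 miRNAs (2.50%) were called. M c-Raf was higher on 5 of 6 slides. In wild type lungs it was -0.27 ± 0.29 (SE; 95% interval -0.87 to 0.32, limma adjusted p = 0.652), where limma called none of the 120 (0%) and 11 had an unadjusted p under 0.05. M WT was lower on 4 of 6 slides, and without M WT replicate 5 the value was -0.083. Of 120 tested miRNAs, 118 matched a RefSeq miRNA gene, and 7 of these besides miR-221 lie on the X chromosome alone: miR-223, miR-322, miR-361, miR-500, miR-652, miR-764-5p and miR-98. None of the 7 was called in any of the 6 comparisons. Their median difference between M WT and F WT was -0.11, beside -0.12 over all 120.

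**Figure D4:**
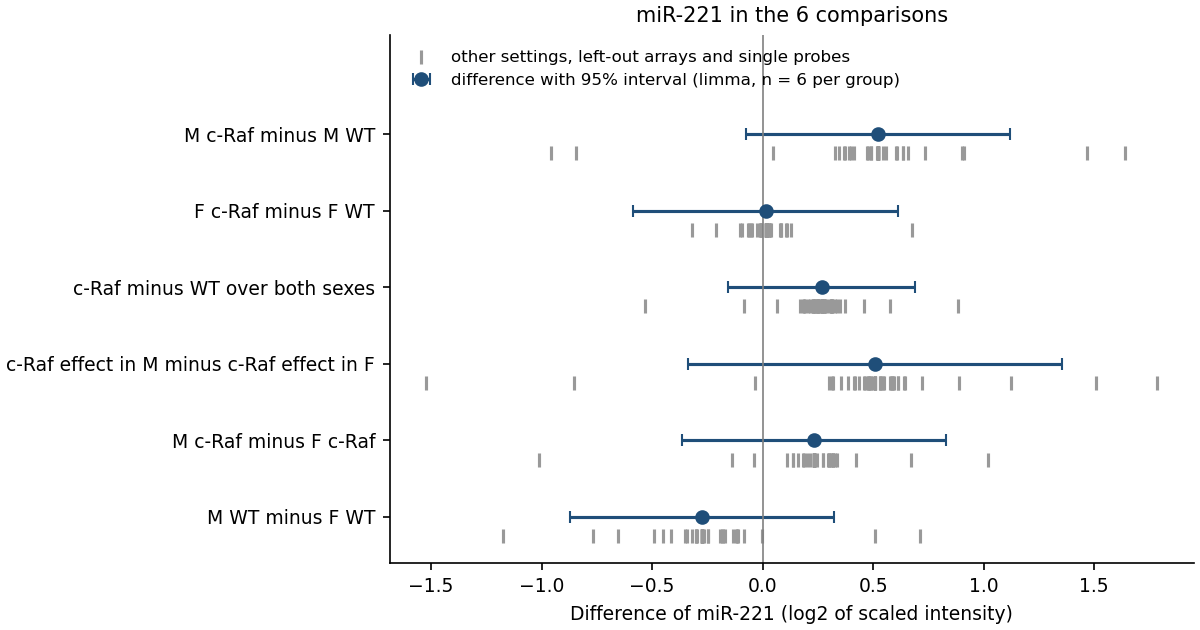
Difference of miR-221 (log2 of scaled intensity) in the 6 comparisons, as points with 95% intervals from limma (n = 6 per group), with grey ticks for other settings, single probes and fits without 1 array. All 6 intervals include 0, and the ticks fall on both sides of 0 in every comparison.

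For miR-222 the tests have little to work on. It was detected on fewer than 6 arrays and so was not among the 120 tested. In a fit over all 611 mouse miRNAs with no filter, miR-222 differed by -0.18 (limma adjusted p = 0.579) between M c-Raf and M WT and by -0.026 (limma adjusted p = 1.00) between F c-Raf and F WT. The male value came from M WT replicate 5, and without this array it was 0.027. F WT replicate 5 was at the floor, and leaving it out gave -0.036 in females. Over both sexes the value was -0.11 (limma adjusted p = 0.757). A difference in miR-222 was thus not detectable at this signal, which is no statement that there was none.

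Other miRNAs linked to RAS, RAF or ERK signalling were described beside the pair. Of 14 listed, 6 were tested and 5 were never detected. In females 2 of the 6 were higher in c-Raf lungs, where 4 of all 120 (3.33%) were called higher. In males none of the 6 was called, where 3 of all 120 (2.50%) were. miR-21, a widely studied oncogenic miRNA with AP-1 sites in its promoter, was at -3.66 ± 0.74 in F WT and -1.35 ± 0.74 in F c-Raf (SD, n = 6), a difference of 2.31 ± 0.44 (SE, limma adjusted p = 0.00157). miR-31, which lowers inhibitors of RAS signalling, rose by 1.14 ± 0.31 (SE, limma adjusted p = 0.0338) in females. Both were also called over both sexes, at 1.79 and 0.98 (limma adjusted p = 0.000318 and 0.00479). The male values were 1.27 (limma adjusted p = 0.123) for miR-21 and 0.82 (limma adjusted p = 0.137) for miR-31. miR-21 was lower in M c-Raf than in F c-Raf by a difference of -1.88 (limma adjusted p = 0.0177). The other 4 tested members, miR-155, miR-34a, miR-20a and miR-92a, were not called in any comparison. The median difference of the 6 over both sexes was 0.23, beside 0.089 over all 120. miR-221, with 0.27, stood near that median and was not called.

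Because the pair is abundant in vessel and muscle cells, markers of the cells that the samples could hold were set beside it. Over both sexes the endothelial miR-126-3p rose by 0.75 ± 0.21 (SE, limma adjusted p = 0.0217), and the other endothelial marker was never detected. The summed level of the endothelial list, relative to brightness, ranged from 0.0740 to 0.324 in wild type and 0.198 to 0.459 in c-Raf males. It ranged from 0.223 to 0.320 in wild type and 0.286 to 0.519 in c-Raf females. Of the 5 tested epithelial markers, 3 rose, where 15 of all 120 miRNAs (12.5%) were called higher: miR-200a by 0.73, miR-200b by 0.75 and miR-429 by 0.73 (limma adjusted p = 0.0217, 0.0482 and 0.0180). The others, miR-200c and miR-375, were not called, at 0.23 and 0.25 (limma adjusted p = 0.461 and 0.583). miR-200a was detected on 11 of 24 arrays. The median summed epithelial level was 1.03 in wild type and 0.979 in c-Raf males. In females it was 1.08 in wild type and 1.54 in c-Raf. Of the 2 tested markers of red blood cells, miR-486 fell by 1.10 (limma adjusted p = 0.00213), where 7 of all 120 (5.83%) were called lower. The other, miR-451, had a difference of 0.37 (limma adjusted p = 0.389). None of the tested smooth muscle (miR-133a, miR-133b) and leukocyte (miR-150, miR-223) markers was called. Their differences were -0.57, -0.88, -0.38 and 0.66 (limma adjusted p = 0.332, 0.0997, 0.461 and 0.0648). The smooth muscle markers miR-143 and miR-145 were detected on 3 arrays each and not tested, and miR-1 was detected on none. The leukocyte markers miR-142-3p and miR-142-5p were never detected. For these 2 cell types most listed markers thus gave no test. The part of these cell types in the level of miR-221 was not tested.

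Which miRNAs varied most like the pair over the arrays was described last. Among the 81 tested miRNAs detected on at least 12 arrays, Pearson's r with the mean of miR-221 and miR-222 over the 24 arrays was highest for miR-107 (0.709), miR-497 (0.702), miR-30b* (0.693), miR-34b-5p (0.660) and miR-22 (0.656). After the group means were taken out, the order was miR-30b* (0.766), miR-497 (0.749), miR-130a (0.723), miR-34b-5p (0.697) and miR-107 (0.693). The lists share 4 names. The points share arrays and scans, and miR-30b* itself had r = -0.587 with log2 brightness. miR-222 was at the floor on 20 arrays and adds little to the mean of the pair there. On M WT replicate 5, where miR-221 was at the floor, a miR-222 value of -5.38 raised that mean.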

How the data were processed

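The deposited scanner files hold intensity per spot, background-subtracted by the authors with Agilent Feature Extraction (10.7.3.1 per the file headers) and not scaled between arrays. A deposited table of processed intensity holds the median over spots times 1 factor per array on a linear scale, uncentred; 99.964% of its values lay within 1% of that product, and column medians ran from 299.1 to 2273. It holds miR-222 for M c-Raf only. Array names follow a design on build mm9.

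Each spot was divided by the 75th percentile of spot intensities of the 27 mouse miRNAs that every array detected, values under 0.01 were set to 0.01, and the log2 of the median over the 20 spots was taken. The floor stood for 0.349 to 12.1 intensity units. No spot was saturated. limma 3.58.1 (R 4.3.3; two-sided moderated test from lmFit, then eBayes) fitted 4 group means to all 24 arrays, with Benjamini-Hochberg adjustment over the 120 mouse miRNAs detected on at least 6 arrays. The fit was tested on simulated data. Relations used 100000 resamples.

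The members, lists and tests were chosen with earlier results of these data known. Named were both members, list miRNAs that were called or whose list is described, and the 5 most like the pair by r with and without the group means. Alternatives were other scalings, background corrections, floors, filters and summaries, the deposited table, blocks, single probes and leaving out each array. That the mature strands are the 3p arms was read from the names, as no probe sequence was used. Samples of a group are separate animals per the methods, while the sample titles give replicate numbers only. The number of animals limits the precision.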

Additional observations from a re-analysis of the deposited data

Results flagged for a closer look

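On the scaled log2 scale 4 of the 8 groups examined (both miRNAs, 4 groups each) held 1 array far from the others, where chance gives about 5% of groups, and all 4 concern miR-222, whose other 5 arrays in each group were tied at the floor. Any single value above the floor is then far from the rest.

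miR-222 in M WT replicate 5 was at -5.38. Its intensity there, 4.90 units, lay under the 95th percentile of the never detected miRNAs on that array, 7.09 units. miR-222 in F WT replicate 1 was at -6.35, with 3.30 units against 3.44. miR-222 in M c-Raf replicate 4 was at -6.48, with 13.6 units against 1.56, and all 20 spots were well above background. miR-222 in F c-Raf replicate 1 was at -6.50, with 1.90 units against 0.783.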

How the results depend on the processing

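miR-221 was past the threshold in none of 256 fits, and its smallest adjusted p was 0.09. Its direction was less stable. With normexp background correction the differences were -0.85 (M c-Raf minus M WT), -0.084 (both sexes), -1.52 (males minus females in the c-Raf effect), -1.01 (M c-Raf minus F c-Raf) and 0.51 (M WT minus F WT). With the floor raised to each array's weakest signal well above background (the higher floor), chosen after seeing the data, they were -0.96, -0.53, -0.85, -0.14 and 0.71, and -0.10 in females. The female difference was also -0.32 without scaling, -0.0087 with centring, -0.049 with the mean over spots, -0.21 with the total gene signal, -0.094 in the deposited table and -0.0084 with log2 brightness as a covariate (added after seeing the data). With probe A_54_P3830 alone the difference of the effects was -0.036 and M c-Raf minus F c-Raf was -0.041. Larger values of the same sign came too. In males miR-221 differed by 1.64 with the percentile over all spots, 1.47 without scaling, 0.91 with the total gene signal and 0.90 with a floor of 0.001, and over both sexes by 0.88, 0.57, 0.35 and 0.46. The median of all 120 miRNAs moved with these scalings, to 1.01 in males and 0.61 over both sexes with all spots and to 1.19 and 0.50 without scaling. Leaving out 1 array at a time, miR-221 ranged from 0.33 to 0.74 in males, -0.066 to 0.11 in females, 0.17 to 0.37 over both sexes, 0.32 to 0.72 for the difference of effects, 0.11 to 0.32 between the c-Raf groups and -0.49 to -0.083 between the WT groups. The female sign turned without F c-Raf replicate 2, 3 or 5 or F WT replicate 1, 4 or 5. The methods' t-test called neither member.

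miR-222 moved with the scale: in males to 1.19 with the percentile over all spots, 0.22 with quantile normalization, 0.54 without scaling, -1.27 with the higher floor and -0.97 with normexp; in females to -0.37 without scaling and 0.71 with normexp; over both sexes to 0.56 with all spots and -0.62 with the higher floor. The difference of the effects was 1.27, 0.21, 0.90, -1.30 and -1.68 in the order given for males. M c-Raf minus F c-Raf was 0.72 without scaling, -0.42 with a floor of 0.001, -0.45 with the higher floor and -1.12 with normexp. M WT minus F WT was -1.03 with all spots, -0.16 with quantile normalization, -0.19 without scaling, -0.33 with a floor of 0.001, 0.85 with the higher floor and 0.56 with normexp. Leaving out 1 array gave -0.23 to 0.027 in males, -0.050 to 0.023 in females, -0.13 to 0.00050 over both sexes, -0.21 to 0.054 for the difference of effects, -0.023 to 0.027 between the c-Raf groups and -0.050 to 0.21 between the WT groups. The relation of the members was 0.710 on unscaled intensities. The cause of these shifts was not tested.

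The 2 called miRNAs linked to RAS, RAF or ERK were 1 with all spots, without scaling, with a floor of 0.1 or with at least 12 arrays detected, and 0 with the higher floor or normexp; they stayed 2 without any 1 array, and the X-linked list stayed at 0. Over both sexes the 22 calls became 12 in the deposited table, 13 with quantile normalization, 14 with the total gene signal, 10 and 9 with floors of 0.001 and 0.1, 7 without a filter, 3 with all spots, 1 without scaling or with the higher floor and 0 with normexp. Other counts of calls also moved, between 0 and 10 in females (6 in the report), 0 and 7 in males (3) and 0 and 6 between the c-Raf groups (3), single left-out arrays included. The 0 calls for the difference of the effects became 2 without F WT replicate 5 and 1 without F c-Raf replicate 1. Same-numbered samples shared a slide per the file headers, 23 of 36 pairs correlated above 0.1 in their deviations (median r = 0.359), and 12 of 24 arrays correlated best with their own number. With the replicate block female calls rose from 6 to 10 and calls over both sexes from 22 to 28, while miR-221 kept its differences (0.52, 0.013, 0.27, 0.51, 0.23 and -0.27) and no call. A floor of 0.1, which puts all values of the pair at the floor, and a filter of 12 arrays, which removes both, gave no value for the members. miR-222 is close to background, so a change in it was not detectable here.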
